A study of Mus musculus with 38 samples.

Results

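A set of 10 genes of the cellular response to oxidants, electrophiles and metals was followed here through chemotherapy in mouse high-grade serous ovarian cancer (HGSOC). They are Nfe2l2, which encodes the transcription factor NRF2, its well-known targets Nqo1, Hmox1, Slc7a11, Gclc, Gclm, Txnrd1 and Srxn1, and the metallothionein genes Mt1 and Mt2. The genes were chosen by symbol, through the Ensembl mouse identifiers of the count tables, and all 10 of the 10 were found among the 55487 genes measured. Earlier results of these data were known at that choice, so counts set beside the share of all genes are descriptions and not independent support. Omental tumors grew from 60577 or HGS2 cells injected intraperitoneally into 8 to 9 week old mice, FVB for 60577 and C57BL/6J for HGS2. Treated mice received 3 weekly doses of carboplatin at 20 mg/kg together with paclitaxel at 10 mg/kg, starting 21 days (60577) or 49 days (HGS2) after cell injection, and control mice received vehicle. Whole tumors were collected 1 day (TP1), 7 days (TP2) or 21 days (TP3) after the last dose. In 60577 there were 3 control and 3 treated tumors at TP1, 3 control and 4 treated tumors at TP2, and 4 treated tumors at TP3. In HGS2 there were 3 and 3 at TP1, 4 and 3 at TP2, and 4 treated tumors at TP3. There was no control group at TP3, so treatment and time cannot be told apart there. Each cell line was also sequenced as an untreated monoculture in 2 libraries, in a medium with insulin, transferrin, selenium and hydrocortisone. Each model is a single transplanted cell line, and the alleles the lines carry are not given in the sources used here.

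NRF2 is held at a low level by KEAP1, which hands it to a ubiquitin ligase for destruction. Oxidants and electrophiles modify KEAP1, and NRF2 then enters the nucleus, pairs with small MAF proteins and binds antioxidant response elements (AREs) near genes for glutathione synthesis, thioredoxin recycling and detoxification, so that its activity is set largely at the protein level. Metallothioneins are small cysteine-rich proteins that bind zinc, copper and cadmium, can also bind platinum, and are switched on through metal response elements (MREs) by the zinc sensor MTF1, and by glucocorticoids. Glutathione, which can conjugate platinum drugs, and metallothioneins have both been studied in platinum resistance of ovarian cancer.

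Libraries held 17839635 to 49299442 expected counts in tumors and 31633121 to 42461995 in the cell lines. Levels are given as counts per 1000000 library counts (CPM) after TMM scaling, and levels of different genes are compared per kilobase (RPKM). Tumors and cell lines were in separate tables and were scaled separately, so that their levels stand side by side without a test. The small noncoding 7SL RNA took 1.93% to 26.5% of the counts of a tumor. In 3 HGS2 tumors, TP1 control replicate 3, TP2 control replicate 2 and TP3 treated replicate 2, markers of pancreatic acinar cells summed to 59500 to 113900 CPM. HGS2 TP3 treated replicate 1 was left out of the fits because the study's tables do not show it. Epithelial markers fit the labels for 60577, with sums of 1996 to 3104 CPM in control tumors and 4540 to 4890 CPM in the line, but they were low in HGS2 control tumors (24.98 to 1064 CPM) beside the HGS2 line (1392 to 1548 CPM). The sources do not say that replicates of a cell line were separate cultures, so the p-values measure the spread between these samples.

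The promoters of the metallothionein genes and of 4 NRF2 targets, Srxn1, Gclm, Slc7a11 and Nqo1, are shown first, because AREs and MREs are the elements through which such genes are known to be switched on. A RefSeq promoter window (GRCm38.p6, 250 bases before to 50 after the start site) was at hand for 8 of the 10 genes, all but Hmox1 and Gclc, with 10 windows in all. Both strands were searched for an ARE core, TGACNNNGC, and for an MRE core, TGCGCNC or TGCACNC. Among 32851 mouse promoter windows of the same length, 12.4% held the ARE core and 25.7% the MRE core, and 1.97% held the MRE core at least 3 times. The windows of Mt1 (chr8:94178839-94179138, plus strand) and Mt2 (chr8:94172368-94172667, plus strand) held it 3 and 4 times, in capitals here.
Mt1: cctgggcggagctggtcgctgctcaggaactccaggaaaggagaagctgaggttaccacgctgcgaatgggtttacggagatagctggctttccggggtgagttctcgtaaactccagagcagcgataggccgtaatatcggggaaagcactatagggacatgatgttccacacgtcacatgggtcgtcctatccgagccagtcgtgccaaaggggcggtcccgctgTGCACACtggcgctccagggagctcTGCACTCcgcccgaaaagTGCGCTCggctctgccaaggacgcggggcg
Mt2: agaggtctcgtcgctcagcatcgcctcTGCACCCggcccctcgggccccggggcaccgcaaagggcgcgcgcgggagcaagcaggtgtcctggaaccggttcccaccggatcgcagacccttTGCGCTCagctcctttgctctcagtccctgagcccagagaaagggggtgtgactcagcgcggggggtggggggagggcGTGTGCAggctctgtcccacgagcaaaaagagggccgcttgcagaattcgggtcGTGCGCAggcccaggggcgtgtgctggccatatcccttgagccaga
The window of Srxn1 (chr2:152105274-152105573, plus strand) held 1 ARE core, that of Gclm (chr3:122245307-122245606, plus strand) also 1, and those of Slc7a11 (chr3:50443564-50443863, minus strand) and Nqo1 (chr8:107403156-107403455, minus strand) none, and the capitals below mark the ARE core.
Srxn1: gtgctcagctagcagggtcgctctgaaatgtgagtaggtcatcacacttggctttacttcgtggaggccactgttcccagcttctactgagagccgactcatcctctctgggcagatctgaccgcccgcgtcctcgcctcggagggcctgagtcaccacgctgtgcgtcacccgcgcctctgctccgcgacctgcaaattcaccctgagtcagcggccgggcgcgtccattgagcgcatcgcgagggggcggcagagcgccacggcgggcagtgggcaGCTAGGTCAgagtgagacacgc
Gclm: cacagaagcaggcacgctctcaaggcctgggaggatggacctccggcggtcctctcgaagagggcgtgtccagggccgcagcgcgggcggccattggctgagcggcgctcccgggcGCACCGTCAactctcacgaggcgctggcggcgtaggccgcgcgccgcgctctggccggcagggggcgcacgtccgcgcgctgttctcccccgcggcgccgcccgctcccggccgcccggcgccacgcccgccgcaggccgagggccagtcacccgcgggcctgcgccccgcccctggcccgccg
Slc7a11: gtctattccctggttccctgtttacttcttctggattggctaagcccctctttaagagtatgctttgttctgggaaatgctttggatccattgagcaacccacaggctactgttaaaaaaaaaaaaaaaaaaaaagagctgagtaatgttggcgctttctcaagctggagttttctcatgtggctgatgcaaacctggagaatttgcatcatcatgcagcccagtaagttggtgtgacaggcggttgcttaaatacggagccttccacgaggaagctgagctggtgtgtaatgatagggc
Nqo1: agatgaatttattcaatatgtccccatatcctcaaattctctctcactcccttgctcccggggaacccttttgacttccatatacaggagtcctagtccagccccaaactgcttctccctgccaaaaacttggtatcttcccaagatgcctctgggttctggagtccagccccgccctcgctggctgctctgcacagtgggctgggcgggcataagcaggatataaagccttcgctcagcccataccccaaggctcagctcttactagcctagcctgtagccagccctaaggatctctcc
The ARE core was also found once each in the windows of Nfe2l2 and Mt2 and in 1 of the windows of Txnrd1. In the Gclm window, 1 of its 3 MRE cores overlaps the ARE core, and the Srxn1 window held 1 MRE core. The window of Nqo1 held neither core. A match says only that these letters are present, and a window without one says nothing of elements farther away.

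In untreated tumors the metallothioneins stood highest per length and the cystine transporter gene lowest. In the 6 control tumors of 60577, Mt1 was at 65.2 ± 49.6 RPKM and Mt2 at 54.3 ± 47.7 RPKM (SD). Hmox1 followed at 39.5 ± 33.1 RPKM, Nfe2l2 at 27.3 ± 2.63 RPKM and Txnrd1 at 18.2 ± 3.34 RPKM. The ranges of Mt1, Mt2 and Hmox1 were wide because of single tumors, and these 3 neighbors in the order did not differ beyond their spread. Gclc (12.3 ± 1.89 RPKM) and Srxn1 (11.6 ± 3.28 RPKM) were likewise within their spread of each other, whereas Gclm (6.32 ± 0.678 RPKM), Nqo1 (3.05 ± 0.657 RPKM) and Slc7a11 (0.584 ± 0.562 RPKM) formed a descending end. In the 7 HGS2 control tumors the order was the same except that Srxn1 (15.3 ± 5.69 RPKM) stood above Gclc (8.43 ± 1.88 RPKM). In both cell lines Mt2 had the highest mean per length, 209.6 ± 155.2 RPKM in 60577 and 101.2 ± 52.4 RPKM in HGS2 (n = 2 each). Mt1 followed at 142.3 ± 45.02 and 76.22 ± 33.25 RPKM, within the spread of Mt2. That order rests on the exon lengths used, 1.246 kb for Mt1 and 0.588 kb for Mt2. In CPM, Mt1 was above Mt2 in every line library. Slc7a11 was again the lowest. The plot of CPM by library shows every value that follows.

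**Figure D1:**
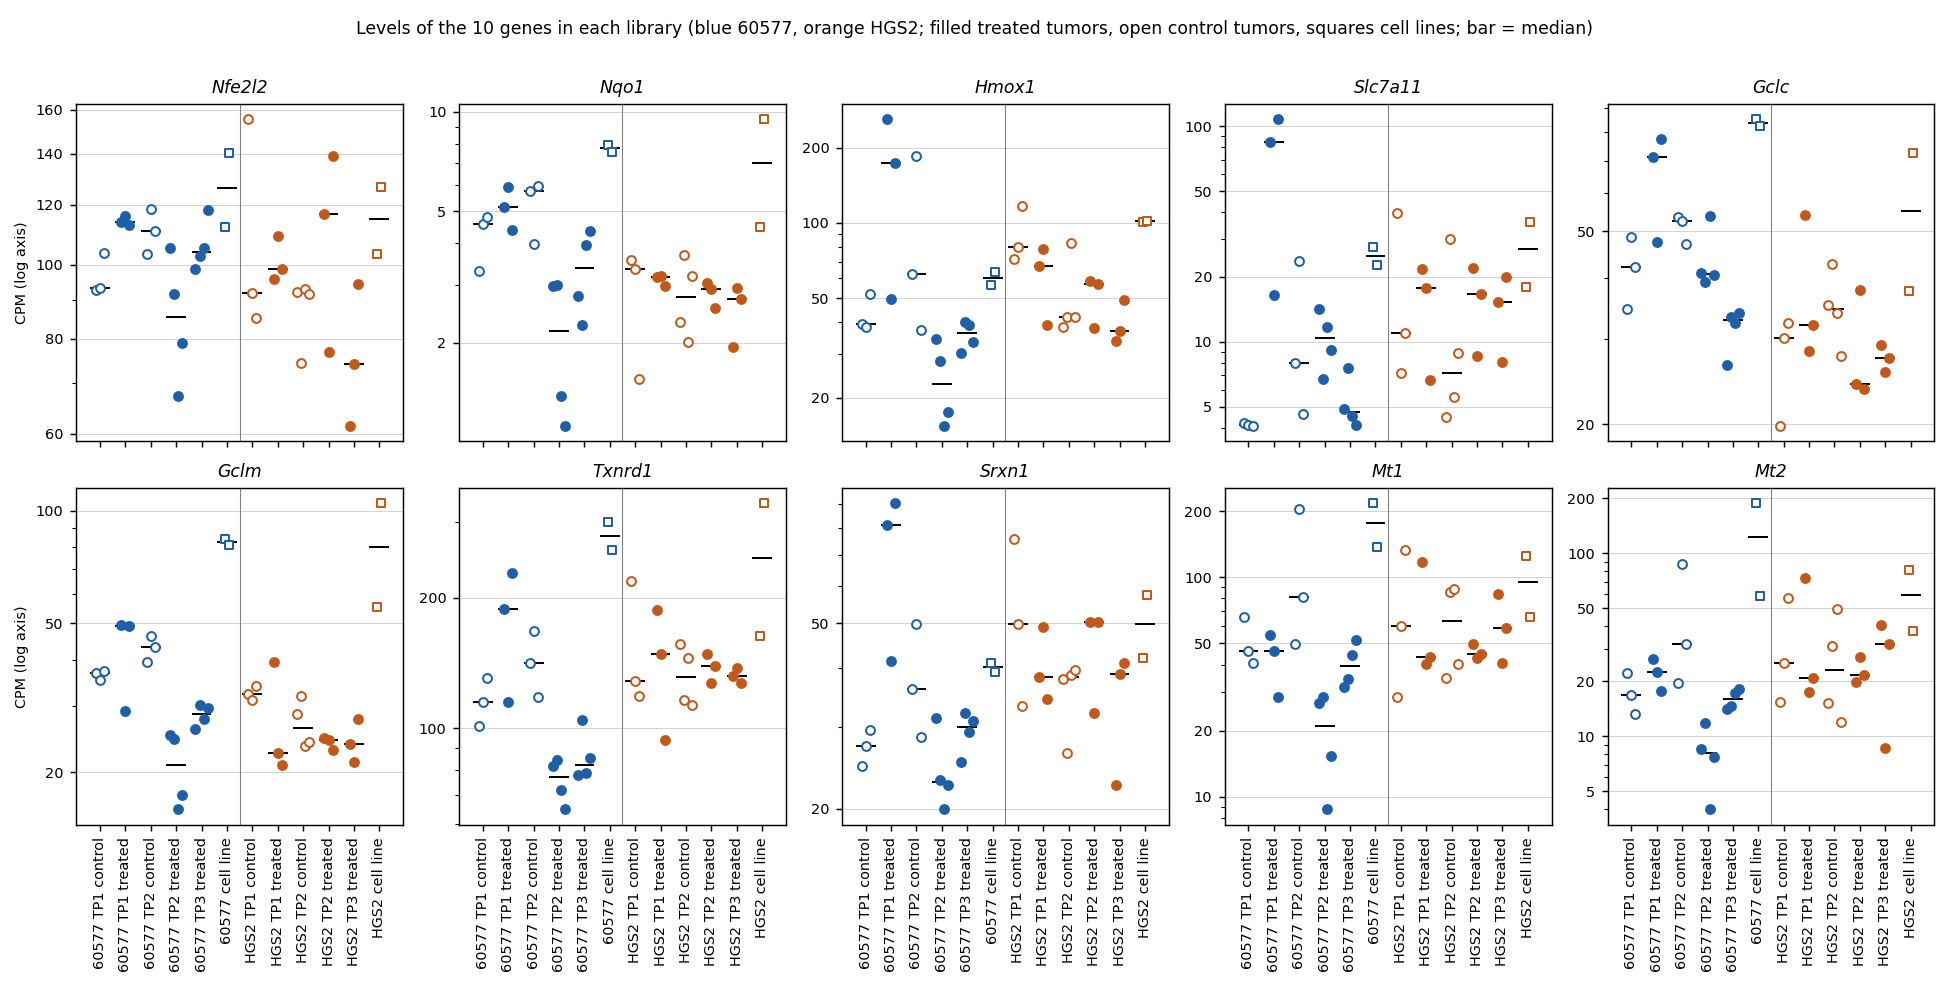
Levels of the 10 genes in CPM (log axes) in every library used, with 60577 in blue and HGS2 in orange, treated tumors filled, control tumors open and cell lines as squares, and a bar at each group's median. Slc7a11 in 60577 rises from about 4 CPM in the TP1 controls to 16.5 to 107.6 CPM in the TP1 treated tumors, and in HGS2 the treated and control ranges overlap for each of the 10 genes at each time point.

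At TP1, 1 day after the last dose, treated 60577 tumors had more RNA of the cystine transporter, of heme oxygenase and of redox recycling enzymes than their controls. Of the 10 genes, 5 were higher by edgeR's quasi-likelihood test at an adjusted p below 0.05, and 0 were lower. Over all 16241 genes tested, 17.1% were higher and 16.2% lower. The median log2 fold change of the 10 genes was 0.49, beside 0.00 over all genes. The 5 were Slc7a11, Srxn1, Hmox1, Gclc and Txnrd1. In whole tumors, fewer cells of a type and less RNA per cell cannot be told apart.

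**Figure D2:**
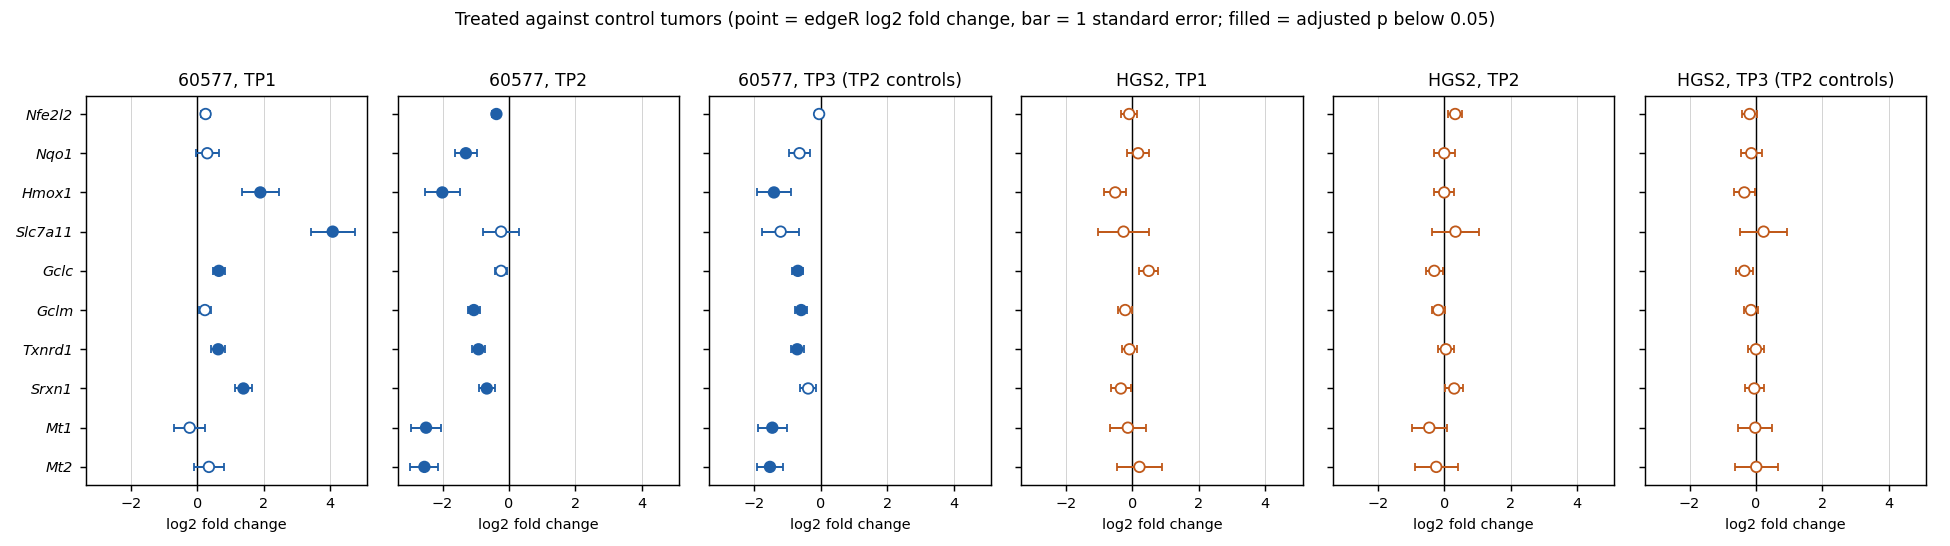
Log2 fold changes of treated against control tumors (points, edgeR) with 1 standard error on each side, for 60577 in blue and HGS2 in orange at TP1, TP2 and TP3, where TP3 tumors are set against TP2 controls. Filled points passed at an adjusted p below 0.05, and the 60577 panels hold 5 filled points to the right at TP1 and 8 and 6 to the left at TP2 and TP3, while the HGS2 panels hold 0.

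Slc7a11 (ENSMUSG00000027737, chromosome 3, 49892526 to 50443614, minus strand, GRCm38) encodes xCT, the subunit of the cystine and glutamate antiporter that brings in cystine for glutathione synthesis. Its level was 4.203, 4.102 and 4.084 CPM in the 3 TP1 control tumors and 84.7, 16.5 and 107.6 CPM in the 3 TP1 treated tumors. The controls lay within a narrow band, every treated tumor was above it, and treated replicate 2 was well below the other two. The rise was 16.95-fold (log2 fold change 4.08 ± 0.66, SE, adjusted p = 0.000329, edgeR), and Slc7a11 passed in all 17 fits that left out 1 tumor.

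Srxn1 (ENSMUSG00000032802, chromosome 2, 152105516 to 152111376, plus strand) encodes sulfiredoxin, which restores overoxidized peroxiredoxins. It was at 24.7, 27.3 and 29.5 CPM in TP1 controls and at 81.1, 41.5 and 90.4 CPM in treated tumors. Again the groups did not overlap and treated replicate 2 was the lowest of its group. The rise was 2.63-fold (log2 1.39 ± 0.26, adjusted p = 0.000983, edgeR). Hmox1 (ENSMUSG00000005413, chromosome 8, 75093621 to 75100589, plus strand) encodes heme oxygenase 1, which breaks heme down to biliverdin, carbon monoxide and iron and is abundant in macrophages. Its levels were 39.4, 38.5 and 51.9 CPM in controls and 259, 49.6 and 174 CPM in treated tumors, so that treated replicate 2 lay inside the control range. The mean rose 3.74-fold (log2 1.90 ± 0.56, adjusted p = 0.0176, edgeR).

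Gclc and Txnrd1 rose less. Gclc (ENSMUSG00000032350, chromosome 9, 77754535 to 77794485, plus strand) encodes the catalytic subunit of glutamate-cysteine ligase, the first and rate-limiting enzyme of glutathione synthesis. It was at 34.5, 48.8 and 42.2 CPM in controls and 71.1, 47.6 and 77.7 CPM in treated tumors, a 1.58-fold rise (log2 0.65 ± 0.18, adjusted p = 0.0114, edgeR) with replicate 2 among the controls. Txnrd1 (ENSMUSG00000020250, chromosome 10, 82833951 to 82897712, plus strand), the cytosolic thioredoxin reductase, was at 101, 115.1 and 130.4 CPM in controls. In treated tumors it was at 188, 115.1 and 228 CPM, a 1.54-fold rise (log2 0.63 ± 0.21, adjusted p = 0.0346, edgeR) in which replicate 2 matched a control. Gclm, the modifier subunit of the same ligase (ENSMUSG00000028124, chromosome 3, 122245557 to 122270732, plus strand), did not pass: its controls were at 35.3 to 37.2 CPM and its treated tumors at 49.4, 29.2 and 49.1 CPM (log2 0.23 ± 0.19, adjusted p = 0.387, edgeR).

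The regulator and the metallothioneins did not pass at TP1. Nfe2l2 (ENSMUSG00000015839, chromosome 2, 75675513 to 75704641, minus strand) was at 92.6, 93.2 and 103.6 CPM in controls and 113.9, 115.8 and 112.9 CPM in treated tumors. The groups did not overlap, but the difference was small (log2 0.25 ± 0.13, adjusted p = 0.164, edgeR). Nqo1 (ENSMUSG00000003849, chromosome 8, 107388225 to 107403206, minus strand), the quinone reductase often used as an NRF2 readout, was at 3.30 to 4.803 CPM in controls and 4.39 to 5.92 CPM in treated tumors (adjusted p = 0.549, edgeR). Mt1 (ENSMUSG00000031765, chromosome 8, 94179082 to 94180327, plus strand) was at 40.5 to 66.1 CPM and then 28.6 to 54.7 CPM. Mt2 (ENSMUSG00000031762, chromosome 8, 94172664 to 94173568, plus strand) was at 13.3 to 22.3 CPM and then 17.8 to 26.4 CPM. Ranges of both metallothioneins overlapped between the groups, with adjusted p-values of 0.740 and 0.571 (edgeR).

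Other measures moved with these groups. Neutrophil markers summed to 9.38 to 22.7 CPM in TP1 controls and to 69.8, 34.4 and 155.1 CPM in treated replicates 1, 2 and 3, with 5 of 5 tested markers higher. Macrophage markers summed to 687 to 1028 CPM and then 2581 to 3790 CPM, with 2 of 7 higher. Epithelial markers fell from 1996 to 2344 CPM to 425.6 to 837.9 CPM, with 7 of 7 tested markers lower. Adipocyte and fibroblast markers were higher for 5 of 6 each. Treated replicate 2, the low one in the values above, had adipocyte markers at 483.7 CPM against 32.3 and 11.2 CPM in the other treated tumors. The share of 7SL RNA was 3.59% to 4.91% in controls and 7.87% to 15.4% in treated tumors. In a fit with that share as a covariate, chosen after seeing the data, 3 of the 10 genes passed, and Gclc (adjusted p = 0.0599, edgeR) and Txnrd1 (adjusted p = 0.0536, edgeR) did not. The count was 2 when TP1 control replicate 1 was left out, and 3 when control replicate 2 or treated replicate 1 or 3 of TP1 was. The part of these cell types in the result was not tested.

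By 7 days after the last dose the picture had turned in 60577: 8 of the 10 genes were lower in treated than in control tumors, and 0 were higher. Over all genes tested, 29.2% were lower and 29.2% higher. The median log2 fold change of the 10 genes was -0.99, beside 0.03 over all genes. Only Slc7a11 and Gclc did not pass. Same-numbered control and treated tumors correlated weakly at TP2 (r of 0.114 to 0.144), while different-numbered tumors of different 60577 groups reached 0.3, so a pairing is not established. With the replicate number as a block within each time point, an alternative chosen after seeing the data, 6 genes passed, without Nfe2l2 (adjusted p = 0.0905) and Srxn1 (adjusted p = 0.0946, edgeR). With the block over all time points it was 7, without Srxn1 (adjusted p = 0.0590, edgeR).

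The metallothioneins had the lowest log2 fold changes of the 10 genes. Mt2 was at 19.5, 87.7 and 32.0 CPM in the TP2 controls and at 8.55, 11.8, 3.99 and 7.67 CPM in the treated tumors. Mt1 was at 49.4, 203.7 and 81.3 CPM in controls and at 26.7, 28.6, 8.77 and 15.4 CPM in treated tumors. No treated tumor reached the lowest control for either gene, and control replicate 2 stood far above the rest. Mt2 fell by 2.55 ± 0.42 on the log2 scale (adjusted p = 0.000160) and Mt1 fell by 2.50 ± 0.45 (adjusted p = 0.000323, edgeR). Without control replicate 2, Mt2 fell by 1.68 (adjusted p = 0.000715) and Mt1 fell by 1.72 (adjusted p = 0.00244, edgeR).

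Hmox1 at TP2 was at 62.2, 185.8 and 37.1 CPM in controls and 34.3, 28.0, 15.5 and 17.5 CPM in treated tumors, all below the controls. It fell by 2.01 ± 0.52 on the log2 scale (adjusted p = 0.00407, edgeR). Nqo1 was at 5.74, 3.99 and 5.98 CPM in controls and 2.98, 2.99, 1.38 and 1.13 CPM in treated tumors. Its groups did not overlap either, and it fell by 1.3 ± 0.33 (adjusted p = 0.00357, edgeR).

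Gclm was at 39.4, 46.4 and 43.2 CPM in TP2 controls and 25.2, 24.5, 15.9 and 17.4 CPM in treated tumors, and fell by 1.06 ± 0.18 on the log2 scale (adjusted p = 0.000229, edgeR). Txnrd1 was at 141.8, 168 and 117.8 CPM in controls and 81.9, 84.5, 72.0 and 64.9 CPM in treated tumors (log2 -0.92 ± 0.20, adjusted p = 0.00121, edgeR). Neither gene had a treated tumor in the control range. Srxn1 (36.1, 49.9 and 28.5 CPM, then 31.2, 23.1, 19.9 and 22.5 CPM) fell by 0.67 ± 0.24 (adjusted p = 0.0260, edgeR), with treated replicate 1 inside the control range. Nfe2l2 itself fell by 0.38 ± 0.12 (adjusted p = 0.0164, edgeR), from 103.4, 118.3 and 110.9 CPM to 105.2, 91.7, 67.2 and 78.9 CPM, again with replicate 1 inside the control range.

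Gclc and Slc7a11 overlapped between the groups. Gclc was at 53.5, 52.6 and 47.2 CPM in controls and 41.1, 39.3, 53.8 and 40.6 CPM in treated tumors (log2 -0.24 ± 0.17, adjusted p = 0.230, edgeR). Slc7a11 was at 7.97, 23.8 and 4.62 CPM in controls and 14.3, 6.72, 11.7 and 9.20 CPM in treated tumors (log2 -0.24 ± 0.55, adjusted p = 0.728, edgeR). Control replicate 2, the tumor with the highest Slc7a11, Hmox1, Mt1 and Mt2 of its group, carried erythroid markers at 725.5 CPM and neutrophil markers at 46.4 CPM, the highest sums in its group. Without it 5 genes passed at TP2, and Hmox1 (log2 -1.06, adjusted p = 0.0642), Srxn1 (log2 -0.42, adjusted p = 0.173) and Nfe2l2 (log2 -0.32, adjusted p = 0.0705) did not (edgeR). The share of 7SL RNA was 2.91% to 14.1% in TP2 controls and 9.38% to 26.5% in treated tumors, and with it as a covariate 5 genes passed. Epithelial markers summed to 2124 to 3104 CPM in controls and 500.0 to 886.3 CPM in treated tumors (6 of 7 tested lower), and dividing-cell markers were lower for 5 of 5, erythroid markers for 4 of 5 and neutrophil markers for 3 of 5. Adipocyte markers were higher for 6 of 6, T cell markers for 5 of 6 and B cell markers for 5 of 5. Their part in the result was not tested.

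At TP3, 21 days after the last dose, 6 of the 10 genes in 60577 were lower than in the TP2 controls and 0 were higher. Over all genes tested, 26.0% were lower and 25.3% higher, and the median log2 fold change was -0.70 for the 10 genes and 0.00 for all. This comparison shares its control tumors with that at TP2. Gclc, at 26.5, 33.3, 32.4 and 33.97 CPM against 47.2 to 53.5 CPM in the controls, fell by 0.69 ± 0.17 on the log2 scale (adjusted p = 0.00288, edgeR) without overlap. Txnrd1 was at 77.8, 104.6, 78.7 and 85.4 CPM, below all 3 controls, and fell by 0.71 ± 0.20 (adjusted p = 0.00730, edgeR). Gclm, at 26.2, 30.4, 27.7 and 29.7 CPM, was also below the controls and fell by 0.59 ± 0.18 (adjusted p = 0.0135, edgeR).

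Hmox1 at TP3 was at 30.2, 40.0, 38.9 and 33.5 CPM, around the lowest control (log2 -1.41 ± 0.51, adjusted p = 0.0301, edgeR). Mt1 was at 31.7, 34.4, 44.2 and 51.8 CPM (log2 -1.46 ± 0.44, adjusted p = 0.0114, edgeR), with replicate 4 above the lowest control. Mt2 was at 14.0, 14.6, 17.3 and 18.1 CPM, just below the controls (log2 -1.53 ± 0.40, adjusted p = 0.00523, edgeR). Without TP2 control replicate 2 only Gclc and Txnrd1 passed, a count of 2, and the log2 fold changes were -0.46 for Hmox1 (adjusted p = 0.437), -0.67 for Mt1 (adjusted p = 0.174) and -0.67 for Mt2 (adjusted p = 0.0989, edgeR). Slc7a11, at 4.87, 7.52, 4.53 and 4.11 CPM, was back near the level of the TP1 controls and did not pass (adjusted p = 0.0792, edgeR). At TP3 adipocyte markers summed to 1222 to 1745 CPM, against 2.77 to 17.02 CPM in the TP2 controls, with 6 of 6 higher. Epithelial markers summed to 319.2 to 503.3 CPM at TP3 and 2124 to 3104 CPM in those controls (7 of 7 tested lower), and dividing-cell markers to 71.1 to 107.2 CPM and 496.9 to 524.4 CPM (5 of 5 lower). Neutrophil markers were lower for 4 of 5, while macrophage markers were higher for 5 of 7, T cell markers for 6 of 6, B cell markers for 5 of 5 and fibroblast markers for 4 of 6. The part of these cell types in the result was not tested.

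Within treated 60577 tumors, 9 of the 10 genes were lower at TP2 than at TP1 and 0 were higher. Over all genes tested, 9.86% were lower and 9.43% higher, with a median log2 fold change of -1.26 for the 10 genes and 0.03 for all. Hmox1 fell by 2.76 ± 0.53 on the log2 scale (adjusted p = 0.00543), Slc7a11 fell by 2.75 ± 0.55 (adjusted p = 0.00689) and Srxn1 fell by 1.56 ± 0.24 (adjusted p = 0.00247, edgeR). For these 3 genes every TP2 tumor was below every TP1 tumor. Txnrd1 (log2 -1.24 ± 0.20), Nqo1 (-1.28 ± 0.33), Mt2 (-1.48 ± 0.41), Gclm (-1.05 ± 0.18), Gclc (-0.60 ± 0.17) and Nfe2l2 (-0.42 ± 0.12) also fell, and Mt1 did not pass (-1.12 ± 0.44, adjusted p = 0.0805, edgeR). Without TP1 treated replicate 1 the count was 5, and it was also lower with a replicate block over all time points. Neutrophil markers were lower at TP2 for 5 of 5 tested (median log2 fold change -3.7) and fibroblast markers for 3 of 6. B cell markers were higher for 4 of 5. Their part in the falls was not tested.

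From TP2 to TP3 in treated 60577 tumors 3 of the 10 genes passed. Gclm (log2 0.47 ± 0.17, adjusted p = 0.0425) and Nfe2l2 (0.33 ± 0.12, adjusted p = 0.0402) were higher at TP3 and Gclc was lower (-0.45 ± 0.16, adjusted p = 0.0367, edgeR). Over all genes, 16.2% were higher and 18.8% lower, and the median log2 fold change was 0.40 for the 10 genes and -0.01 for all. Mt1 and Mt2 were higher in every TP3 than in every TP2 tumor (log2 1.04 ± 0.41 and 1.01 ± 0.39), with adjusted p-values of 0.0612 and 0.0536 (edgeR). Leaving out 1 tumor at a time gave 0 to 5 genes, with 0 passing without TP2 treated replicate 3 or 4 or without any 1 of the TP3 tumors, 1 when control replicate 2 of TP1 was left out, and 5 when control replicate 1 or 2 or treated replicate 1 or 2 of TP2 was. The 7SL share was 1.93% to 5.89% at TP3 against 9.38% to 26.5% at TP2, and with it as a covariate 0 genes passed. Adipocyte and pancreatic acinar markers were higher at TP3 for 6 of 6 each, and their part in the result was not tested.

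In HGS2 tumors 0 of the 10 genes passed at TP1, TP2 or TP3, or between the treated time points. By edgeR 0 of all 16241 genes passed in each of these 5 comparisons (0% called in either direction), although 413, 1233 and 406 genes had an unadjusted p below 0.05 at TP1, TP2 and TP3. DESeq2 called 1, 9 and 5 genes in the same 3 comparisons, and 1 and 144 genes for TP2 against TP1 and for TP3 against TP2, where 152 and 1690 genes had an unadjusted p below 0.05 by edgeR. Limma-voom called 0 in all 5. The only unadjusted p below 0.05 among the 10 genes was that of Nfe2l2 for treated TP3 against TP2 (log2 -0.52 ± 0.24). The median log2 fold change of the 10 genes was -0.12 at TP1, 0.00 at TP2 and -0.10 at TP3, beside 0.00, -0.02 and 0.00 over all genes.

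Single HGS2 tumors reached Slc7a11 levels above the lowest TP1 treated 60577 tumor (16.5 CPM) but below the others (84.7 and 107.6 CPM). Slc7a11 was at 39.7, 7.15 and 10.9 CPM in the TP1 controls and 21.8, 17.9 and 6.66 CPM in the TP1 treated tumors. At TP2 it was at 4.47, 29.9, 5.53 and 8.87 CPM in controls and 21.9, 8.60 and 16.7 CPM in treated tumors. Both groups held high and low tumors, and the 95% interval of the log2 difference (normal approximation) ran from -1.76 to 1.22 at TP1 and from -1.05 to 1.73 at TP2. For Srxn1 the interval at TP1 was -0.93 to 0.23, with controls at 75.8, 49.9 and 33.2 CPM and treated tumors at 38.4, 49.2 and 34.5 CPM.

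Hmox1 in HGS2 was at 71.5, 80.3 and 116.4 CPM in TP1 controls and 67.4, 78.7 and 39.2 CPM in treated tumors (log2 -0.52 ± 0.33, interval -1.16 to 0.12). At TP2 it was at 38.2, 42.0, 83.4 and 41.9 CPM in controls and 58.8, 37.9 and 56.8 CPM in treated tumors. Gclc at TP1 was at 19.9, 30.2 and 32.4 CPM in controls and 54.1, 28.3 and 32.1 CPM in treated tumors, with treated replicate 1 alone outside the control range on the high side. The same tumor had the highest Mt1 (117.3 CPM) and Mt2 (73.5 CPM) of its group, whose other tumors were at 40.2 and 43.2 CPM for Mt1 and 17.4 and 20.9 CPM for Mt2. In TP1 controls, Mt1 was at 28.6, 60.0 and 133.3 CPM, and replicate 3, the highest, is one of the tumors with acinar markers. With those 3 tumors left out together, a choice made after seeing the data, 0 genes of the 10 passed in all 5 HGS2 comparisons. The comparisons between models did change in that fit. Over these and the HGS2 comparisons, 74 calls stayed as they were, 4 were gained and 2 lost, and every change was between models.

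The other genes in HGS2 are given by their ranges. Gclm ranged from 20.9 to 39.4 CPM, Nqo1 from 1.55 to 3.68 CPM and Txnrd1 from 93.8 to 219 CPM over the 16 tumors. Nfe2l2 ranged from 61.5 to 155.3 CPM, with its extremes in TP3 treated replicate 2 and TP1 control replicate 1. The intervals of the TP1 log2 differences were -0.64 to 0.20 for Gclm, -0.57 to 0.39 for Txnrd1 and -0.57 to 0.37 for Nfe2l2. Those of Mt1 and Mt2, -1.22 to 0.94 and -1.15 to 1.57, were wider and ran on both sides of 0.

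The response itself was then compared between the models, as the log2 response in HGS2 minus that in 60577. At TP1, 2 of the 10 genes had a lower response in HGS2 and 0 a higher one, beside 1.16% and 0.616% of all genes. These were Slc7a11 (log2 -4.39 ± 1.04, adjusted p = 0.0296) and Srxn1 (-1.77 ± 0.41, adjusted p = 0.0265, edgeR). Hmox1 differed by -2.43 ± 0.68 without passing (adjusted p = 0.0597, edgeR). The count changed with single tumors: 0 genes passed without 60577 TP1 control replicate 1 or 2, 60577 TP1 treated replicate 1 or 3, or HGS2 TP1 treated replicate 1, and 1 gene without 60577 TP1 control replicate 3. The count was 3 when 60577 TP1 treated replicate 2, 60577 TP2 control replicate 2 or 3, or HGS2 TP1 control replicate 2 was left out. The value of Slc7a11 was -3.30 (adjusted p = 0.0544, edgeR) without HGS2 TP1 control replicate 1, the tumor at 39.7 CPM. With a replicate block, over all time points or within each, 0 of the 10 genes passed for the TP1 difference.

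At TP2, 3 of the 10 genes had a higher response in HGS2 than in 60577 and 0 a lower one, beside 6.00% and 4.33% of all genes. Hmox1 differed by 1.99 ± 0.63 on the log2 scale (adjusted p = 0.0439), Txnrd1 by 0.97 ± 0.31 (adjusted p = 0.0488) and Gclm by 0.88 ± 0.27 (adjusted p = 0.0393, edgeR). Mt2 (2.29 ± 0.80, adjusted p = 0.0624), Mt1 (2.04 ± 0.70, adjusted p = 0.0609) and Nqo1 (1.31 ± 0.45, adjusted p = 0.0606) had larger or similar differences that did not pass. Leaving out 1 tumor at a time gave 0 to 6 genes. The count was 0 without 60577 TP2 control replicate 2, without which Hmox1 was at 1.05 (adjusted p = 0.286, edgeR), and also without any 1 of the 60577 TP1 controls, without 60577 TP2 treated replicate 3 or 4, TP3 treated replicate 1, 3 or 4, HGS2 TP2 control replicate 4, or HGS2 TP2 treated replicate 1 or 3. It was 1 without HGS2 TP2 control replicate 2, 5 without HGS2 TP1 treated replicate 1, and 6 without HGS2 TP1 control replicate 1 or 3 or 60577 TP2 treated replicate 1 or 2. At TP2 same-numbered control and treated tumors correlated weakly in both models, within the range of different-numbered tumors. With a replicate block, over all time points or within each, 0 of the 10 genes passed for this difference. Within each time point the values were then 1.58 for Hmox1 (adjusted p = 0.212), 0.79 for Gclm (adjusted p = 0.162) and 0.83 for Txnrd1 (adjusted p = 0.0854, edgeR). The difference was higher in HGS2 for 5 of 5 dividing-cell markers and lower for 3 of 5 B cell markers, whose part in the result was not tested. The plot of differences between models shows these values with their errors.

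**Figure D3:**
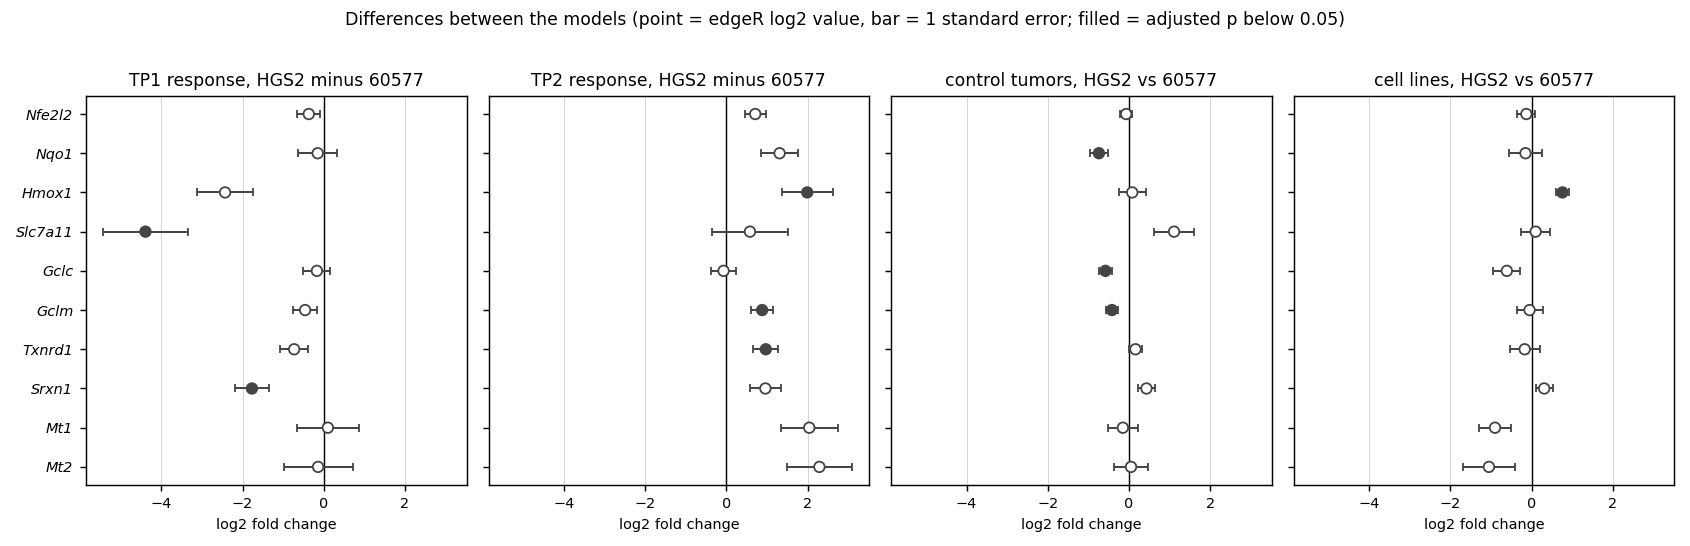
Log2 differences between HGS2 and 60577 (points, edgeR) with 1 standard error on each side, for the treatment response at TP1 and at TP2 (HGS2 minus 60577), for control tumors and for cell lines. Filled points passed at an adjusted p below 0.05: Slc7a11 and Srxn1 at TP1, Hmox1, Gclm and Txnrd1 at TP2, Nqo1, Gclc and Gclm in control tumors, and Hmox1 in the lines.

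In control tumors, TP1 and TP2 together, 3 of the 10 genes were lower in HGS2 than in 60577 and 0 were higher, beside 23.4% and 28.1% of all genes, and the median log2 fold change was -0.01 for the 10 genes and 0.05 for all. The 3 were Nqo1 (2.81 CPM on average in 7 HGS2 tumors and 4.73 CPM in 6 of 60577, log2 -0.74 ± 0.23, adjusted p = 0.0105), Gclc (31.7 and 46.5 CPM, -0.58 ± 0.16, adjusted p = 0.00362) and Gclm (29.4 and 39.7 CPM, -0.42 ± 0.14, adjusted p = 0.0154, edgeR). Gclm ran from 23.5 to 34.1 CPM in HGS2 and from 35.3 to 46.4 CPM in 60577 without overlap. Slc7a11 was the gene with the largest difference in the other direction (log2 1.11 ± 0.50, adjusted p = 0.0634, edgeR). Without 60577 TP2 control replicate 2 or 60577 TP1 treated replicate 2, 5 genes passed, with Slc7a11 and Srxn1 added as higher in HGS2. Fibroblast markers summed to 18080 to 101000 CPM in HGS2 and 3957 to 7141 CPM in 60577 controls (6 of 6 higher), and macrophage markers to 1512 to 3271 CPM and 687 to 1417 CPM (7 of 7 higher). Epithelial markers, at the levels given in the opening, were lower in HGS2 for 5 of 7, and acinar markers were higher for 6 of 6, T cell markers for 4 of 6 and B cell markers for 3 of 5. The malignant lines differed in the same way in monoculture. Fibroblast markers summed to 11210 to 25660 CPM in the HGS2 line and 933.2 to 1516 CPM in the 60577 line (5 of 6 higher). Epithelial markers were lower in the HGS2 line for 5 of 7. These 2 lists therefore do not separate host cells from tumor cells in HGS2. The part of these cell types in the result was not tested.

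In monoculture Hmox1 alone passed between the lines: 1 of the 10 genes was higher in HGS2 and 0 were lower, beside 9.10% and 9.82% of 13742 genes tested. With 2 libraries a line, a gene that did not pass may still differ. Hmox1 was at 100.9 and 101.9 CPM in the HGS2 line and 56.6 and 63.4 CPM in the 60577 line (log2 0.76 ± 0.17, adjusted p = 0.0366, edgeR). Mt1 was at 124.3 and 65.7 CPM in HGS2 and 217 and 137.7 CPM in 60577, and Mt2 at 81.3 and 37.7 CPM and at 187.7 and 58.7 CPM, with replicates as far apart as the lines for Mt2. Gclc was at 37.6 and 72.5 CPM in HGS2 and 85.1 and 82.6 CPM in 60577. The count was 0 without either 60577 replicate, 2 without HGS2 replicate 1, 3 without HGS2 replicate 2 and 0 with a replicate block.

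Set beside the tumors, which were scaled separately, the lines had higher levels of Gclm and Nqo1 than any control tumor of their model, and other genes overlapped in part. Gclm was at 84.0 and 81.3 CPM in the 60577 line and 35.3 to 46.4 CPM in 60577 control tumors. Txnrd1 was at 299.7 and 257.4 CPM in that line and 101 to 168 CPM in those tumors, but in the HGS2 line at 163.2 and 330.9 CPM, with replicate 1 inside the range of its control tumors (113.2 to 219 CPM). Nqo1 was at 7.96 and 7.57 CPM against 3.30 to 5.98 CPM in 60577, and at 4.48 and 9.47 CPM against 1.55 to 3.68 CPM in HGS2. Srxn1 lay inside the control range in both lines, at 41.1 and 39.2 CPM in 60577 and 42.0 and 57.6 CPM in HGS2. Gclc was above its control tumors in the 60577 line (34.5 to 53.5 CPM in the tumors), while HGS2 line replicate 1, at 37.6 CPM, was inside their range of 19.9 to 42.8 CPM. In the HGS2 line, Gclm was at 55.3 and 104.8 CPM, and in its control tumors at 23.5 to 34.1 CPM. Slc7a11 in the 60577 line was at 27.4 and 22.8 CPM, below 2 of the 3 TP1 treated tumors, at 84.7 and 107.6 CPM. Macrophage markers summed to 1.16 to 4.70 CPM in the lines, with Adgre1, Cd163 and C1qa at 0 in all of them, so that Hmox1 at 56.6 to 101.9 CPM was measured there without that signal.

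Mt1 and Mt2 lie next to each other on chromosome 8 and varied together. Across the 17 tumors of 60577 their log2 levels had a Pearson r of 0.97, and across 16 HGS2 tumors 0.88. Mt1 exceeded Mt2 in CPM in each of the 33 tumors fitted, by a ratio of 1.59 to 4.76 (median 2.32), and by 1.16 to 2.34 in the 4 cell line libraries. In the tumor left out of the fits the ratio was 28.1, with Mt2 at 1.28 CPM. The lowest ratio was in 60577 line replicate 1, where Mt2 reached 187.7 CPM. The coding sequences are similar, so reads that match both genes were divided between them by estimate.

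**Figure D4:**
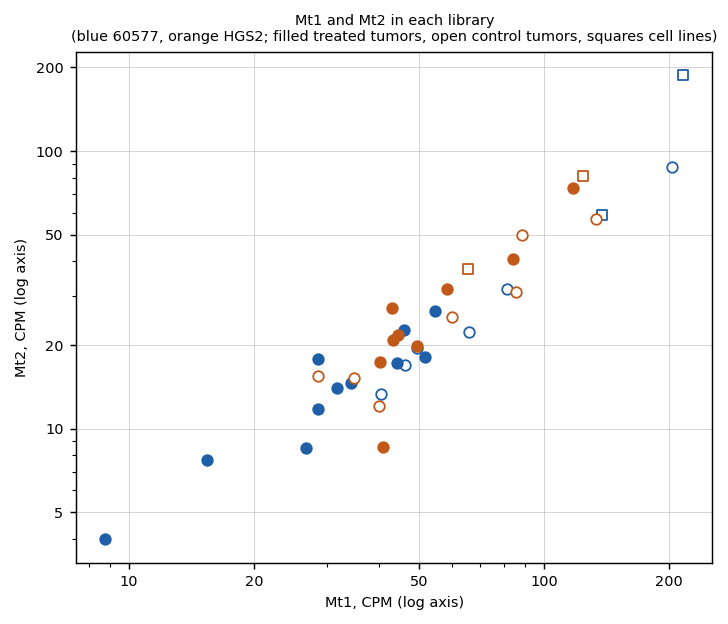
Mt2 against Mt1 in CPM (log axes) in each library, 60577 in blue and HGS2 in orange, treated tumors filled, control tumors open and cell lines as squares. The points run along a diagonal from the 60577 TP2 treated tumor at 8.77 and 3.99 CPM to the 60577 line at 217 and 187.7 CPM.

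Around these genes, 88 further genes of the same pathways were read, of which 83 were tested in tumors. These lists too were chosen with earlier results of the data known, so their shares are descriptions. At TP1 in 60577, 26 (31.3%) were higher and 5 (6.02%) lower, beside 17.1% and 16.2% of all genes (median log2 fold change 0.38). Of 11 other NRF2 target enzymes and exporters 7 were higher and 0 lower. Among them, Cbr3, a carbonyl reductase, rose 4.85-fold, Ephx1, the microsomal epoxide hydrolase, rose 2.49-fold and Abcc4, a drug and anion exporter, rose 2.15-fold. The iron storage genes Ftl1 (3.15-fold) and Fth1 (2.08-fold) and the biliverdin reductase gene Blvrb (2.99-fold) also rose, while Tfrc, the transferrin receptor, fell 2.04-fold. Gpx3 and Sod3, which encode secreted antioxidant enzymes, were 7.16-fold and 5.87-fold higher. In the 60577 line Gpx3 was at 0 CPM and Sod3 at 3.21 to 5.76 CPM, beside 195.9 to 230.7 CPM and 167.5 to 190.0 CPM in the treated tumors. Macrophage, fibroblast and adipocyte markers rose and epithelial markers fell in these groups, and the part of the cell mix in the pathway values was not tested. Of 11 thioredoxin and peroxiredoxin genes 0 were higher and 1 lower.

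At TP2, 11 of the 83 (13.3%) were higher and 41 (49.4%) lower in treated 60577 tumors, beside 29.2% and 29.2% of all genes (median log2 fold change -0.48). Of the thioredoxin and peroxiredoxin genes 8 of 11 were lower, among them Prdx4 (2.98-fold), Prdx2 (2.63-fold) and Txn1 (2.59-fold), and of the NADPH supply genes 5 of 6 were lower, among them Me1 (2.48-fold) and Pgd (2.15-fold). Of 10 partners and repressors of NRF2, 7 were lower, among them the small MAF gene Maff (2.61-fold) and Rbx1 (2.12-fold), a subunit of the ligase that degrades NRF2. Gsr, which regenerates glutathione, was 2.51-fold lower and Ptgr1, an NRF2 target that reduces alkenals and prostaglandins, 3.47-fold lower. Against this, Gpx3 was 4.14-fold higher (6.23-fold without TP2 control replicate 3) and Ggt5 4.34-fold higher. Ggt1, of the same family as Ggt5, was 5.67-fold lower (3.01-fold without TP2 control replicate 1). Cbs, of the transsulfuration pathway, was 50.2-fold lower, a value carried by control replicate 1: the controls ran from 0.156 to 18.4 CPM, and without that tumor the difference was 6.92-fold (adjusted p = 0.0331, edgeR). In these groups all 6 pancreatic acinar markers were lower too, with 1.09 to 1226 CPM in controls and 0.884 to 12.7 CPM in treated tumors, and their part in that value was not tested.

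At TP3 against TP2 controls, 22 (26.5%) were higher and 24 (28.9%) lower, shares close to the 25.3% and 26.0% of all genes (median log2 fold change -0.08). Of 16 glutathione transferases 7 were higher and 3 lower, with Gstk1 at 7.99-fold and Gstz1 at 7.59-fold higher, and Cat, which encodes catalase, was 2.32-fold higher. Within treated tumors 0 were higher and 33 (39.8%) lower at TP2 than at TP1, beside 9.43% and 9.86% of all genes. From TP2 to TP3, 35 (42.2%) were higher and 1 (1.20%) lower, beside 16.2% and 18.8%. Gstk1 was at 0.412 to 1.02 CPM in the TP2 controls, near the filter of 1 CPM, so its fold change is measured from a low level. It was at 0.09 to 0.247 CPM in the 60577 line and 4.87 to 6.50 CPM in the TP3 tumors. Adipocyte markers were higher at TP3 for 6 of 6, both against TP2 controls and against TP2 treated tumors. The part of the cell mix in these pathway values was not tested. In HGS2 0 of the 83 passed in each of the 5 comparisons. The TP1 response was lower in HGS2 than in 60577 for 4 of the 83, namely Cbr3 (log2 -2.19 ± 0.49, adjusted p = 0.0195), Ftl1 (-1.65 ± 0.40, adjusted p = 0.0312), Blvrb (-1.43 ± 0.34, adjusted p = 0.0290) and Abcc4 (-1.28 ± 0.25, adjusted p = 0.00967, edgeR), and higher for 0, beside 1.16% and 0.616% of all genes. Leaving out single TP1 tumors ended these calls for Cbr3 in 2, Blvrb in 5 and Ftl1 in 7 of 33 fits, among them the fits without 60577 TP1 control replicate 1 or 60577 TP1 treated replicate 3 for all 3, without 60577 TP1 control replicate 3, 60577 TP1 treated replicate 1 or HGS2 TP1 treated replicate 1 for Blvrb and Ftl1, and without 60577 TP1 control replicate 2 or HGS2 TP1 control replicate 3 for Ftl1. At TP2 it was higher for 10 of the 83 and lower for 2, beside 6.00% and 4.33%. The bar plot of the lists shows how the balance of higher and lower genes moved over time.

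**Figure D5:**
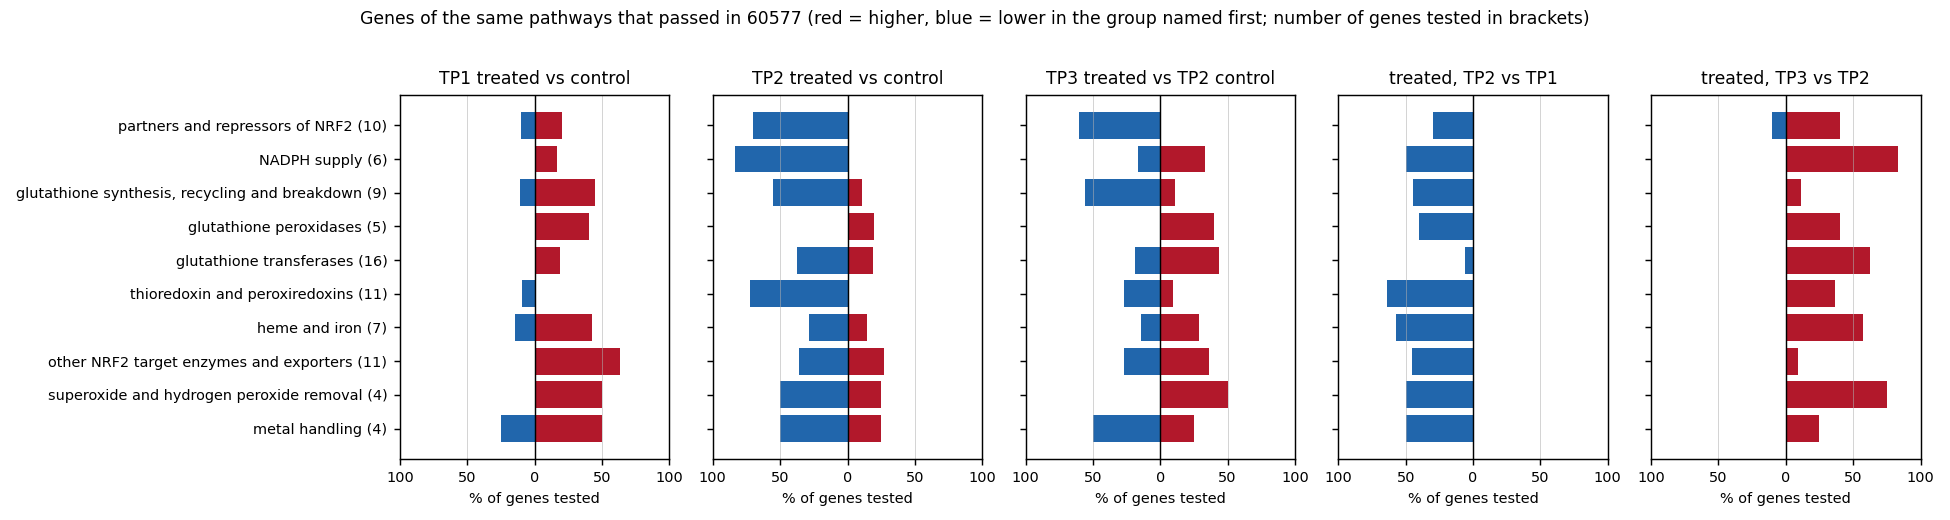
Percent of the tested genes of each of 10 pathway lists that passed at an adjusted p below 0.05 in 60577, red to the right for higher and blue to the left for lower in the group named first, with the number of genes tested in brackets. At TP1 most bars point right, at TP2 7 of 10 partners and repressors of NRF2 and 8 of 11 thioredoxin and peroxiredoxin genes point left, and from TP2 to TP3 in treated tumors most bars point right.

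In control tumors 22 of the 83 (26.5%) were higher and 16 (19.3%) lower in HGS2, beside 28.1% and 23.4% of all genes. Cbr3 was 5.96-fold and Abcc4 2.93-fold higher, Ptgr1 5.44-fold and Mgst1, a microsomal glutathione transferase, 3.85-fold lower. In the cell lines 8 of 80 were higher and 10 lower in HGS2, beside 9.10% and 9.82% of all genes, and Cbr3 (6.58-fold higher), Ptgr1 (6.35-fold lower) and Mgst1 (2.09-fold lower) passed there as well, although Cbr3 and Mgst1 did not without either 60577 replicate. Genes of these families that resemble one another, such as the peroxiredoxins and glutathione transferases, can share reads, and their values carry that uncertainty.

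The genes most like each of the 10 were ranked by the smaller of the Pearson correlations of log2 CPM within the 17 tumors of 60577 and the 16 of HGS2, as a description. Slc7a11 was most like Riok3 (0.86 and 0.76), Abcb1b (0.69 and 0.60) and Ifrd1 (0.60 and 0.62). Srxn1 was most like Esd (0.89 and 0.93), C5ar1 (0.92 and 0.88) and Gss (0.92 and 0.88). Hmox1 was most like Apoc2 (0.79 and 0.81), and Txnrd1 most like Adrm1 (0.92 and 0.89). Nfe2l2 was most like Sdcbp (0.92 and 0.85), Gclm like Eprs (0.83 and 0.83), Gclc like Mroh1 (0.68 and 0.67) and Nqo1 like Atxn1l (0.71 and 0.71). The points share libraries, depth and the mix of cells, and they pool control and treated tumors of all time points. A shared change with treatment or time therefore enters these correlations. Among the 10 genes themselves, Hmox1 and Srxn1 had an r of 0.93 in 60577 and 0.47 in HGS2, and Nfe2l2 and Srxn1 0.66 and 0.89.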

How the data were processed

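Total RNA of whole tumors and of cell line cultures was depleted of rRNA and sequenced. Per the labels and the study's methods, the authors trimmed reads with Trim Galore 0.6.5, aligned them with STAR 2.7.0f to GRCm38 and deposited RSEM expected counts per gene, in 1 table for 34 tumors and 1 for 4 cell line libraries. Expected counts were rounded, scaled by TMM and filtered to genes that reached 1 CPM in 25% or more of the libraries (16241 genes in tumors, 13742 in cell lines). The edgeR 4.0.16 quasi-likelihood test (R 4.3.3) was fitted over all genes, with a separate fit of 17 tumors of 60577, 16 of HGS2, all 33 together for differences between models, and the cell lines. Tests were two-sided, p-values were adjusted by Benjamini-Hochberg over all genes tested, and a gene passed at an adjusted p below 0.05. Standard errors are the log2 fold change divided by the root of F. RPKM used GENCODE M21 exon lengths. The genes and pathway lists were chosen with earlier results of these data known. Of the pathway lists, genes are named that passed with an absolute log2 fold change above 1, at most 4 per list and comparison. The other lists were marker genes of cell types. Alternatives were limma-voom 3.58.1, DESeq2 1.42.0, its size factors, no filter on low counts, a log2 fold change limit of 1, correction for length and GC content with a spline of 5 degrees of freedom, a replicate block, all 17 HGS2 tumors, and leaving out each replicate. Same-numbered control and treated tumors correlated weakly at TP2 (r of 0.114 to 0.144 in 60577 and 0.138 to 0.296 in HGS2, 3 pairs each, all above 0.1). At TP1 not all pairs did. Different-numbered tumors of different groups reached 0.3 in 60577 and 0.627 in HGS2, so these values do not establish a pairing. A block within each time point was added after the data were seen. Scripts were tested on simulated data. No library differed from another of its own group by less than sampling noise (44 pairs), and libraries of different groups were not compared in this way. An RSEM count divides reads shared by similar genes by estimate.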

Additional observations from a re-analysis of the deposited data

Results flagged for a closer look

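Of 30 combinations of a gene and a group of 4 tumors, 4 held a tumor far from the other 3 by Dixon's test, and chance alone marks about 1 in 20 groups. In 60577 TP2 treated replicate 3, Gclc was at 53.77 CPM, above the other treated tumors at 39.3 to 41.1 CPM, while Nfe2l2, Nqo1, Mt1 and Mt2 were low in that tumor (67.2, 1.38, 8.77 and 3.99 CPM). In HGS2 TP2 control replicate 2, Nfe2l2 was at 74.41 CPM and Srxn1 at 26.39 CPM, each the lowest of its group, and pancreatic acinar markers summed to 113900 CPM there. In HGS2 TP2 control replicate 3, Hmox1 was at 83.36 CPM, against 38.2 to 42.0 CPM in the other controls.

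The response to chemotherapy differed between HGS2 and 60577 by a test of the difference itself (edgeR, HGS2 minus 60577, log2 scale) for 5 values. At TP1 these were Slc7a11 (-4.39) and Srxn1 (-1.77). At TP2 they were Hmox1 (1.99), Gclm (0.88) and Txnrd1 (0.97). With a replicate block, over all time points or within each, 0 of the 5 passed.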

How the results depend on the processing

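No log2 fold change of the 10 genes changed sign while passing under any alternative. With library totals in place of TMM scaling, 19 of 140 group means moved by more than 1 SD and 121 did not. Counts are of the 10 genes that passed, and where they moved the cause was not tested, except that a log2 fold change limit of 1 can only remove genes. With that limit the counts were 3 at 60577 TP1, 5 at TP2, 3 at TP3 against TP2 controls, 0 for TP3 against TP2 treated tumors, 1 for the TP2 response between models, 0 in control tumors and 0 in cell lines. For treated TP2 against TP1 the limit also removed Gclc and Nfe2l2, and over all comparisons it removed 19 calls. With the 7SL share as a covariate the counts were 3 at 60577 TP1, 5 at TP2, 0 for TP3 against TP2 treated tumors and 0 for the TP2 response between models. DESeq2 gave 5 for TP3 against TP2 treated tumors and 7 for the TP2 response between models. Over all comparisons DESeq2 gained 10 calls and lost 0, so other counts rose too. Limma-voom gave 1 for the TP1 response between models. Over all comparisons limma-voom gained 1 call and lost 5, so other counts moved too. Without a filter on low counts the counts were 0 for TP3 against TP2 treated tumors, 1 and 0 for the TP1 and TP2 responses between models and 3 in cell lines. Over all comparisons that fit gained 2 calls and lost 8. With all 17 HGS2 tumors the count was 0 for the TP2 response between models, and with length and GC correction alone it was 5. The fits with all 17 HGS2 tumors lost 4 calls between models and gained 0, so a call outside the TP2 response was lost as well.

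Over all groups, deviations of same-numbered tumors correlated at -0.418 to 0.318 in 60577 and -0.487 to 0.366 in HGS2. Those of different-numbered tumors correlated at -0.367 to 0.3 and -0.545 to 0.627. Same-numbered control and treated pairs at TP2 were all above 0.1, whereas at TP1 they ran from -0.052 to 0.131 in 60577 and from -0.279 to 0.088 in HGS2. With a replicate block within each time point, added after the data were seen, 2 genes passed at 60577 TP1, 6 at TP2, 0 and 0 for the TP1 and TP2 responses between models and 0 in HGS2. With a replicate block over all time points, 4 genes passed at 60577 TP1, 7 at TP2, 5 at TP3 against TP2 controls, 6 for treated TP2 against TP1, 2 for TP3 against TP2, 0 and 0 for the TP1 and TP2 responses between models, 2 in control tumors, 0 in cell lines and 0 in HGS2. With the block and length and GC correction the counts were 1 for TP3 against TP2 treated tumors, and 0 and 1 for the TP1 and TP2 responses between models. Over all comparisons this fit gained 1 call and lost 9. In the cell lines same-numbered libraries correlated at -0.153, and with crossed numbers, a pairing added after the data were seen, 1 of the 10 genes passed.

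Leaving out each replicate in turn gave 2 to 5 genes at 60577 TP1, 5 to 8 at TP2, 2 to 7 at TP3 against TP2 controls, 5 to 10 for treated TP2 against TP1, 0 to 5 for treated TP3 against TP2, 0 to 3 and 0 to 6 for the TP1 and TP2 responses between models, 3 to 5 in control tumors, 0 to 3 in cell lines and 0 to 0 in HGS2. Where a replicate was left out of 2, the lone library was taken to vary like the others. Groups of 3 or 4 tumors and, for Nqo1, levels under 10 CPM in every library limit the precision.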

Other observations

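HGS2 TP3 treated replicate 1, which entered the fits of 1 alternative alone, stood apart from the other TP3 tumors of its group. Nqo1 was at 0 CPM there, against 1.95 to 2.93 CPM in the other 3, and Mt2 was at 1.28 CPM, against 8.59 to 40.8 CPM. Nfe2l2 (47.3 CPM), Gclc (16.6 CPM), Gclm (15.7 CPM), Txnrd1 (77.2 CPM) and Slc7a11 (4.38 CPM) were each below the other 3 tumors, while Mt1 (36.0 CPM) was close to the lowest of them. The library had 17839635 expected counts, the lowest total of the tumors.

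Among the genes most like the metallothioneins, Mt1 was followed after Mt2 by the ribosomal protein gene Rps19 (Pearson r 0.73 in 60577 and 0.72 in HGS2), and Mt2 after Mt1 by Nudt19 (0.66 and 0.67). These values are descriptions over 17 and 16 tumors.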
